A study of Mus musculus with 7 samples.

Results

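Chemokine ligands, their G protein-coupled receptors and the atypical receptors were described across 7 libraries of tumour cells sorted from mice with glioblastoma, an aggressive brain tumour. Members were chosen by gene symbol alone. Every entry of the deposited count table named Ccl, Cxcl, Xcl1, Cx3cl1, Ccr, Cxcr, Xcr1 or Ackr with its number was taken, and Cx3cr1 falls outside that pattern. They were 64 of the 23282 entries, or 60 symbols, since 4 entries repeat the symbol of Ccl21b, Ccl19 or Ccl21a and hold no count. Of the 60 symbols, 39 were ligands, 17 receptors and 4 atypical receptors. At least 1 count was found for 46 symbols, namely 29 ligands, 13 receptors and all 4 atypical receptors, and 14 had none.

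The libraries came from adult C57BL/6 mice, 3 with wild-type (WT) and 4 with Fyn-knockout (Fyn-KO) tumour cells, each from tdTomato-positive cancer cells sorted by flow cytometry from a separate mouse. Fyn is a Src-family tyrosine kinase, and the comparison asks what its loss does to the transcriptome of the tumour cells. Both groups share strain, disease, sort and library kit. The sources used here do not give how the tumours or the Fyn allele were made, or which cells express tdTomato. The QuantSeq method reads a tag at the 3′ end of each polyadenylated RNA, so counts do not scale with transcript length. Levels are CPM, counts per 1000000 counts of the library, and replicate numbers follow the columns of the table. A call means a Benjamini-Hochberg adjusted p under 0.05 in the edgeR quasi-likelihood test, two-sided, over all 13122 genes that passed the filter on low counts. Log2 fold changes are Fyn-KO minus WT with an approximate standard error (SE).

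Several facts of the whole libraries bear on every result here. Fyn stood at 1039.2, 720 and 1603.6 CPM across WT, against 105, 106, 74.5 and 190 CPM in Fyn-KO (log2 fold change -3.43, adjusted p = 0.0121), although 3′ tags outside an altered part of the gene would check nothing. Library totals were 11911864 to 16371244 counts in WT and 8976745 to 10396507 in Fyn-KO. Even so, 7723 to 9924 genes were detected in WT and 13535 to 14548 in Fyn-KO, and the ribosomal entry Rn45s took 1.41% to 2.92% of WT counts and 10.5% to 16.6% of Fyn-KO counts. The Fyn-KO libraries went against their label as glial tumour cells. The summed level of 10 glial tumour markers was 8323 to 13980 CPM across WT, against 152 to 904 CPM in Fyn-KO. Of these, 7 of 10 were called lower, beside 3.51% of all tested genes. The summed level of 10 markers of steroid-producing cells was 4.46 to 285 CPM across WT, against 23790 to 27230 CPM in Fyn-KO. Of these, 7 of 10 were called higher, beside 19.0% of all tested genes. Among the 7, Cyp17a1, Nr5a1, Mgarp, Akr1b7, Mrap and Lhcgr had no count in WT. Of tested genes with under 10 counts in every WT library, 77.3% were called higher. Each difference between WT and Fyn-KO below is therefore a difference between these libraries as labelled, and differences in which cells were sorted cannot be told apart from effects of the genotype.

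Chemokines are small secreted or membrane-tethered proteins that steer cell migration by binding receptors coupled to inhibitory G proteins. Inflammatory ligands are induced by cytokines such as interferons and tumour necrosis factor, homeostatic ligands are made steadily by stroma, epithelium or lymphoid tissue, and atypical receptors bind ligands without G protein signalling and shape their gradients. In brain tumours, tumour cells, microglia, macrophages and vessels can all make ligands, and receptors are found mainly on leukocytes, with Cxcr4 and Ackr3 also on tumour and vascular cells.

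The summed ligand message overlapped between the 2 groups, whereas receptor message was nearly absent from WT. Ligand genes together held 1228, 387 and 264 CPM in the 3 WT libraries and 316, 307, 314 and 287 CPM in the 4 Fyn-KO libraries, and the groups overlapped. Receptor genes together held 2.35, 1.47 and 1.85 CPM across WT, against 50.9, 60.4, 31.9 and 40.4 CPM in Fyn-KO, with each Fyn-KO library above each WT library. The 4 atypical receptors held 90.3, 30.1 and 0.252 CPM across WT, against 12.9, 1.15, 9.85 and 12.5 CPM in Fyn-KO. Member symbols with a count numbered 22, 18 and 19 for WT, against 31, 29, 31 and 32 for Fyn-KO. In a mixed or impure sort, fewer cells of a type and less RNA per cell cannot be told apart in such bulk libraries.

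Of the 60 symbols, 25 passed the filter and were tested, 21 had counts and were not tested, and 14 had no count. Of the 25, 8 were called higher in Fyn-KO, none lower, and 17 were not called. Among all tested genes 19.0% were called higher and 3.51% lower. At an unadjusted p under 0.05 in edgeR, 11 of the 25 passed, all of them higher, against 26.3% of all tested genes. DESeq2 called 12 members higher and 0 lower. Voom with quality weights called 0 higher and 0 lower, so none of the 8 calls holds with it. Over the 25 members the median log2 fold change was 3.35, against 0.45 over all tested genes. In 13 of the 25 each Fyn-KO library lay above each WT library, against 30.1% of all tested genes, in none did each lie below, against 7.32%, and 12 overlapped. The filter bears on these counts. Of the 25, 11 had under 10 counts in every WT library and so passed through Fyn-KO, all 8 called members are among those 11, and 77.3% of all tested genes of that kind were called higher.

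**Figure D1:**
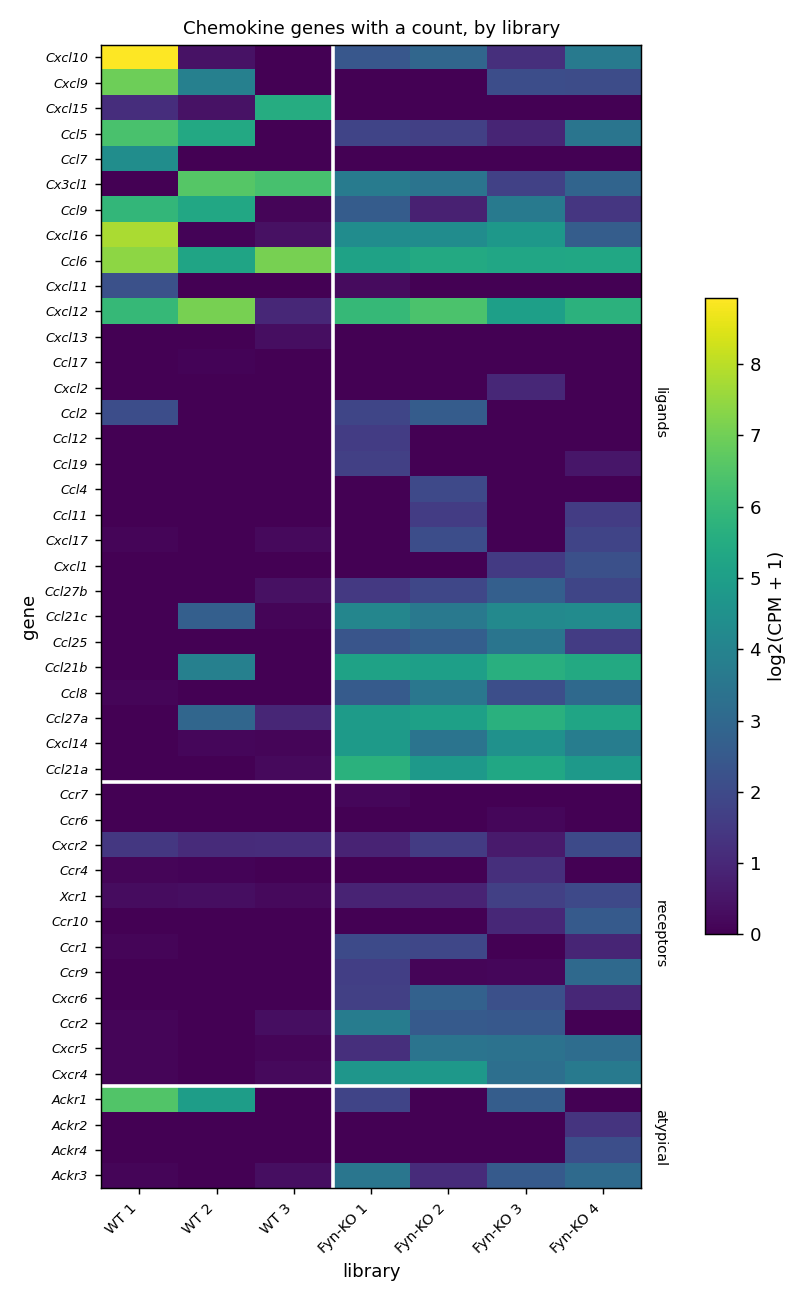
Level of 45 chemokine symbols with a count in each library, as log2 of CPM plus 1, with ligands, receptors and atypical receptors in 3 blocks and the WT libraries left of the white line. The ligand rows bright in WT differ from one WT library to the next, while most receptor rows are dark in WT and lit in Fyn-KO.

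The WT libraries did not hold the same ligands as each other. Cxcl10 led in WT replicate 1 with 39.5% of its ligand counts, Cxcl12 led in WT replicate 2 with 35.3%, and Ccl6 led in WT replicate 3 with 51.7%. Cxcl12 also led in 3 of 4 Fyn-KO libraries, with 18% to 27%, and Ccl27a led in the other with 15.7%. Of the 11 tested members that reached 100 counts in a WT library, 9 had 4 or fewer in another WT library. The like figure over all tested genes was 5855 of 9529, or 61.4%. In Fyn-KO it was 1 of 15 members and 358 of 10898 genes. Over the members with a mean of at least 10 CPM in a group, the ratio of SD to mean was larger in WT for 12 of the 15 that could be compared, with medians of 1.29 for WT against 0.505 for Fyn-KO. For Cxcl14, Cxcr4 and Ccl21a the WT libraries held 3, 3 and 2 counts in all, so their WT ratio includes much counting error.

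**Figure D2:**
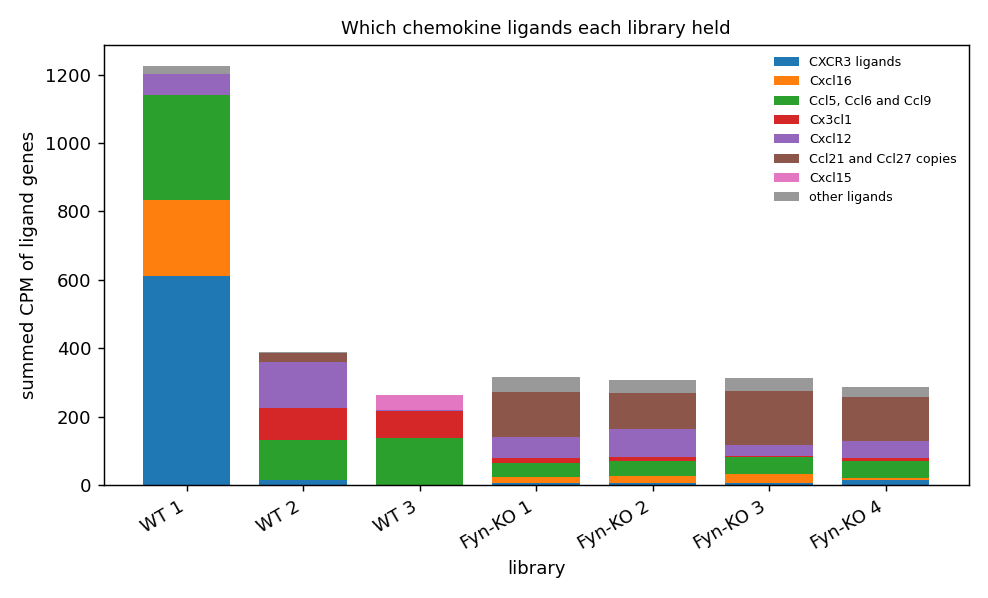
Summed CPM of the ligand genes in each library, stacked by ligand; each bar is 1 library. WT replicate 1, at 1228 CPM, is mostly Cxcr3 ligands, Ccl5, Ccl6, Ccl9 and Cxcl16; the Fyn-KO bars, at 287 to 316 CPM, share a makeup in which the Ccl21 and Ccl27 copies are the widest band.

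The interferon-inducible ligands of Cxcr3, which attract activated T and NK cells, were highest in WT replicate 1. Cxcl9, Cxcl10 and Cxcl11 together held 613, 14.2 and 0 CPM in the WT libraries and 4.58 to 15.2 CPM in those of Fyn-KO, and neither of the 2 tested was called. Cxcl10 (chr5:92346638-92348889, GRCm38, minus strand) stood at 485, 0.366 and 0 CPM across WT, against 4.37, 6.64, 1.31 and 11.9 CPM in Fyn-KO. WT replicate 1 was high and the other WT libraries lay below every Fyn-KO library. The 3′ end of Cxcl10 overlaps an exon of Art3 on the other strand, at 0 to 0.47 CPM across WT, against 1.42 to 9.8 CPM in Fyn-KO. Without a stated strand of counting, reads of the 2 genes cannot be told apart. The log2 fold change of Cxcl10 was -4.79 ± 2.45 (SE), not called (edgeR adjusted p = 0.229). Without WT replicate 1 it was 5.08 (adjusted p = 0.0946), so that 1 library sets its direction. Cxcl9, its neighbour on the chromosome, stood at 124, 13.8 and 0 CPM across WT, against 0, 0, 3.28 and 3.23 CPM in Fyn-KO. The groups overlapped for Cxcl9 (log2 fold change -4.77 ± 2.67, edgeR adjusted p = 0.28). Cxcl11 held 3.68 CPM in WT replicate 1 and 0.213 CPM in Fyn-KO replicate 1, with no count in the other libraries, and was not tested. Cxcr3 itself, their shared receptor, had no count in any library.

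The promoters of Cxcl10 and Cxcl9 are shown because interferon and NF-kappaB inputs to these genes are known from such sequence, and that of Cxcl14 because it is a called ligand that holds the same interferon letters. Each is the 250 bases before the RefSeq start in GRCm38.p6, on the gene's own strand (minus for all 3), at chr5:92348890-92349139, chr5:92328080-92328329 and chr13:56296552-56296801. Capitals mark matches to the interferon-stimulated response element, searched as GAAANNGAAA, and to the kappaB site, on both strands.
Cxcl10: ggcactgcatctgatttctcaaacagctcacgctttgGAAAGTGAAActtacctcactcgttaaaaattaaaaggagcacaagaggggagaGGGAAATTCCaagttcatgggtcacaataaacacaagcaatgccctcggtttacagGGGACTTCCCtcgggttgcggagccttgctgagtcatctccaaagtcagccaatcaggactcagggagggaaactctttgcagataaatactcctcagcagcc
Cxcl9: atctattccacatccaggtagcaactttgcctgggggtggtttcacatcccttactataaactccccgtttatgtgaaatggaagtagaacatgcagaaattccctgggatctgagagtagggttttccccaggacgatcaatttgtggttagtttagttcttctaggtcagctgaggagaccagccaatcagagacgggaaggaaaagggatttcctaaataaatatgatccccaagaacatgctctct
Cxcl14: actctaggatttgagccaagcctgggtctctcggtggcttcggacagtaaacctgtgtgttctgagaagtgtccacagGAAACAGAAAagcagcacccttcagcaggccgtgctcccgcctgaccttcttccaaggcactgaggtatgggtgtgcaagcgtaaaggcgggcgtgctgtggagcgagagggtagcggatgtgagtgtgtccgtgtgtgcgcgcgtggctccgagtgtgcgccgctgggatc
In Cxcl10 the interferon match ends 203 bases before the start and the kappaB matches end 149 and 93 bases before it. The match in Cxcl14 ends 162 bases before the start, and the letters of neither motif are in this window of Cxcl9. RefSeq windows were matched for 44 of the 60 symbols, 51 windows in all, each cut to the same 250 bases before the start, as were all promoters searched. The interferon letters were in 3 of the 51 (Cxcl10, Cxcl14 and Ccl19), against 2.98% of 32851 mouse promoters. The kappaB letters were in 9 of the 51 (Cxcl1, Cxcl2, Cxcl3, Cxcl10, Ccl9, Ccl20, Ccr3, Ccr6 and Ackr2), against 3.90%. A match is a string of letters, not a bound site.

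Genes tied to the induction of such ligands, inhibitors of NF-kappaB included, were read from a list of 33. Of these, 25 were tested, with 2 higher and 1 lower in Fyn-KO (median log2 fold change 0.52). Among all tested genes 19.0% were called higher and 3.51% lower. Il1r1, the interleukin-1 receptor, and Nfkb1, an NF-kappaB subunit, were higher (edgeR adjusted p = 0.0122 and 0.0197). They held at most 0.0839 and 0.244 CPM in a WT library. Both had under 10 counts in every WT library, a class in which 77.3% of tested genes were called higher. Tlr3, a sensor of double-stranded RNA, stood at 363, 40.7 and 141 CPM across WT, against 5.01, 18.3, 4.05 and 3.45 CPM in Fyn-KO, with each Fyn-KO library below each WT library (log2 fold change -4.69 ± 1.09, edgeR adjusted p = 0.0158). Irf1, an interferon-induced activator, stood at 1098.9, 9.04 and 298 CPM across WT, against 45.2 to 106 CPM in Fyn-KO, with WT replicate 1 highest as for Cxcl10. It was not called (edgeR adjusted p = 0.161). The cytokines Tnf, Il1a, Il6 and Ifng had no count in any library.

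The inflammatory CC ligands Ccl3, Ccl4, Ccl5, Ccl6 and Ccl9 were more abundant in WT as a sum, and none of the 3 tested was called. Together they held 308, 116 and 137 CPM across WT, against 41.6, 47.7, 50.7 and 50.8 CPM in Fyn-KO. Ccl6 (chr11:83587882-83593087, minus strand), a mouse ligand of Ccr1 made by myeloid cells, stood at 167, 35.7 and 137 CPM across WT, against 34.0, 41.8, 38.0 and 38.9 CPM in Fyn-KO. The Fyn-KO libraries lay close together (38.2 ± 3.24, SD, n = 4), within the WT range (113 ± 68.8, n = 3), since WT replicate 2 was low. Its log2 fold change was -1.74 ± 0.79 (edgeR adjusted p = 0.171), and without WT replicate 2 it was -2.21 (adjusted p = 0.0147).

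Ccl5, an attractant of T cells and monocytes, stood at 80.6, 40.8 and 0 CPM across WT, against 2.56, 2.21, 0.876 and 10.2 CPM in Fyn-KO. WT replicate 3 lay below all others, and Ccl5 was not called (log2 fold change -3.31 ± 1.94, edgeR adjusted p = 0.307; -3.90 with adjusted p = 0.0427 without WT replicate 3). Ccl9, a close relative of Ccl6, followed the same WT order at 59.8, 39.5 and 0.0839 CPM, with 5.01, 0.769, 11.8 and 1.67 CPM in Fyn-KO. It was not called (log2 fold change -2.64 ± 1.74, edgeR adjusted p = 0.376). Ccl4, made by activated myeloid and T cells, held 2.89 CPM in Fyn-KO replicate 2 and no count elsewhere, and Ccl3 had none.

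Cxcl16 and Cx3cl1, the 2 ligands made as membrane-bound proteins, were each high in some WT libraries and near 0 in others. Cxcl16, the ligand of Cxcr6, stood at 220, 0.0611 and 0.336 CPM across WT, against 19.4, 19.2, 26.3 and 5.24 CPM in Fyn-KO. WT replicate 1 was above every Fyn-KO library and the other WT libraries were below them. Its log2 fold change was -2.07 ± 2.06, not called (edgeR adjusted p = 0.59), and without WT replicate 1 it turned to 6.17 (adjusted p = 0.0325). Cx3cl1, or fractalkine, which neurons and endothelium make and microglia sense through Cx3cr1, stood at 0, 93.8 and 79.5 CPM across WT, against 12.1, 9.71, 2.30 and 6.35 CPM in Fyn-KO. WT replicate 1 had no count where it was highest for Cxcl16. The log2 fold change of Cx3cl1 was -3.03 ± 1.87 (edgeR adjusted p = 0.335), and without WT replicate 1 it was -3.62 (adjusted p = 0.0236).

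Cxcl12, the stromal ligand of Cxcr4 and Ackr3, overlapped between the groups. It stood at 62.1, 137 and 1.01 CPM across WT (66.6 ± 68.0), against 62.5, 83.0, 32.2 and 51.7 CPM in Fyn-KO (57.4 ± 21.2), and WT replicate 2 was highest and WT replicate 3 lowest. The log2 fold change was -0.06 ± 1.21 (edgeR adjusted p = 0.982), an SE that spans more than a doubling either way. The markers of fibroblasts and mural cells summed to 1240, 2365 and 1927 CPM in the same WT libraries. Much of that sum was Cspg4 (535, 1141.4 and 348 CPM) and Pdgfra (663, 1042.8 and 429 CPM), which is also among the glial tumour markers. The part of these markers in Cxcl12 was not tested.

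The homeostatic and epithelial ligands, Cxcl12, Cxcl16 and Cx3cl1 among them, summed to 82.9 to 283 CPM in WT libraries and 208 to 260 CPM in Fyn-KO libraries. Of the 17 listed, 10 were tested, 3 rose in Fyn-KO and 7 were not called (median log2 fold change 3.69). Among all tested genes 19.0% were called higher. The 3 that rose had under 10 counts in every WT library, a class in which 77.3% of tested genes were called higher. Cxcl14 (chr13:56288643-56296551, minus strand), an epithelial and stromal ligand whose receptor is unsettled, stood at 0, 0.122 and 0.0839 CPM across WT, against 28.4, 9.81, 22.1 and 12.7 CPM in Fyn-KO. Each Fyn-KO library held more than any WT library, and the pooled ratio was 247 (95% exact interval 84.3 to 1203). Its log2 fold change was 7.81 ± 1.64 (edgeR adjusted p = 0.0124), with an adjusted p of 0.00601 to 0.0304 in the 7 fits that left out 1 library. With voom and quality weights it was not called (log2 fold change 7.28, adjusted p = 0.475).

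Ccl21a (chr4:42772860-42773993, minus strand), which guides cells to lymphoid tissue through Ccr7, stood at 0, 0 and 0.168 CPM across WT, against 50.5, 26.8, 39.1 and 26.8 CPM in Fyn-KO. The pooled ratio was 732 (95% exact interval 202 to 6050) and the log2 fold change 8.85 ± 2.08 (edgeR adjusted p = 0.0166). The call was lost without Fyn-KO replicate 1 (adjusted p = 0.0522) and with voom and quality weights (adjusted p = 0.37). Ccl25 (chr8:4325210-4360020, plus strand), the ligand of Ccr9 in thymus and gut, was without a count in the WT libraries and reached 4.05, 5.39, 9.96 and 2.01 CPM in Fyn-KO. It was at least 21.2-fold higher than the floor of 3 counts in a WT library (edgeR adjusted p = 0.0123).

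The copies Ccl21b and Ccl21c were higher in each Fyn-KO library than in each WT library and were not called. Ccl21b stood at 0, 13.9 and 0 CPM across WT, against 34.0, 31.8, 48.2 and 41.4 CPM in Fyn-KO (log2 fold change 3.34 ± 2.25, edgeR adjusted p = 0.386). Ccl21c stood at 0, 5.50 and 0.0839 CPM across WT, against 16.1, 11.2, 17.6 and 19.0 CPM in Fyn-KO (log2 fold change 3.35 ± 1.88, edgeR adjusted p = 0.282). WT replicate 2 was the WT library with counts of both, and without it the adjusted p was 0.00455 for Ccl21b and 0.00512 for Ccl21c. These genes cannot be told apart with certainty. The last 100 bases of the Ccl21b transcript also occur in Ccl21a and in the predicted genes Gm10591, Gm13304 and Gm21541, and those 3 predicted genes held equal counts in each library where they had any. Ccl21a and the predicted gene Gm1987 held an equal count in 2 of the 5 libraries where either had one. RefSeq draws Ccl21b over 83.7 kb, while GENCODE M21 places it at chr4:42255767-42256432.

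The Ccl27 copies, skin ligands of Ccr10, were likewise not called. Ccl27a stood at 0, 6.66 and 0.923 CPM across WT, against 28.8, 32.4, 49.3 and 36.8 CPM in Fyn-KO, with no overlap (log2 fold change 4.03 ± 1.82, edgeR adjusted p = 0.167; 0.0493 without WT replicate 2). Its 3′ end overlaps an exon of Il11ra1 on the other strand, which stood at 6.66 to 52.5 CPM across WT, against 85.8 to 90 CPM in Fyn-KO. In WT replicate 2 both genes held 109 counts, and without a stated strand of counting their reads cannot be told apart. Ccl27b stood at 0, 0 and 0.336 CPM across WT, against 1.81 to 5.47 CPM in Fyn-KO (edgeR adjusted p = 0.102).

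The monocyte-attracting ligands of the Ccl2 family held 23.2, 0 and 0 CPM across WT, against 9.59, 15.7, 3.39 and 7.24 CPM in Fyn-KO as a sum. Of the 2 tested, 1 rose, beside 19.0% of all tested genes and 77.3% of those with under 10 counts in every WT library, as it had. Ccl8 (chr11:82115185-82116799, plus strand) stood at 0.0783, 0 and 0 CPM in WT, a single count, and at 4.90, 10.6, 3.39 and 7.24 CPM in Fyn-KO. Every Fyn-KO library lay above every WT library, with a pooled ratio of 273 (95% exact interval 48.6 to 10830) and a log2 fold change of 7.44 ± 1.55 (edgeR adjusted p = 0.0123). Ccl2 stood at 3.29, 0 and 0 CPM across WT, against 2.66, 5.10, 0 and 0 CPM in Fyn-KO (log2 fold change 0.76 ± 2.33, edgeR adjusted p = 0.885). Ccl7 held 19.9 CPM in WT replicate 1 and no count elsewhere, and Ccl12 held 2.02 CPM in Fyn-KO replicate 1 alone; neither was tested.

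Cxcl15, a mouse chemokine of lung epithelium also known as lungkine, was the 1 ligand with a group mean of at least 10 CPM that was not tested. It stood at 1.25, 0.366 and 44.6 CPM across WT. No Fyn-KO library held a count of it, which puts Fyn-KO at least 46.1-fold lower, taking a floor of 3 counts per library. WT replicate 3 held nearly all of it. Without WT replicate 2 it passed the filter (log2 fold change -11.24, edgeR adjusted p = 0.0354). The 7 lung epithelium markers together stood at 529, 118 and 793 CPM across WT, against 0.107 to 7.98 CPM in Fyn-KO. Of these, 3 were tested and all 3 were lower, beside 3.51% of all tested genes. Sftpc, a surfactant protein, stood at 92.8, 74.9 and 398 CPM in WT, with the same library highest as for Cxcl15. The part of these markers in the Cxcl15 values was not tested.

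The remaining ligands were sparse. Cxcl1 (up to 3.56 CPM), Cxcl2, Cxcl17, Ccl11 and Ccl19 had their highest level in a Fyn-KO library, and all but Cxcl17 had no count in WT. For Cxcl17 the pooled ratio was 20.6 (95% lower bound 6.7). Cxcl13 held 0.252 CPM in WT replicate 3 and Ccl17 0.0611 CPM in WT replicate 2, with none in Fyn-KO. The ligands of Cxcr2 had 0 tested members and outside Cxcl15 held at most 3.56 CPM. Those of Ccr3 and Ccr4 had 0 tested members too and held at most 2.02 CPM in any library. Ccl1, Ccl3, Ccl20, Ccl22, Ccl24, Ccl26, Ccl28, Cxcl3, Cxcl5 and Xcl1 had no count in any library.

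Of the 6 receptors tested, 4 rose in Fyn-KO, all with under 10 counts in every WT library, a class in which 77.3% of tested genes were called higher. Cxcr4 (chr1:128588199-128592293, minus strand), the receptor of Cxcl12 on leukocytes, progenitors and many tumour cells, stood at 0.0783, 0 and 0.168 CPM across WT, against 24.5, 26.1, 8.54 and 11.5 CPM in Fyn-KO. WT held 3 counts in all, and Fyn-KO replicates 1 and 2 were the highest. The pooled ratio was 246 (95% exact interval 83.9 to 1197) and the log2 fold change 7.37 ± 1.75 (edgeR adjusted p = 0.0176). The call held in each of the 7 fits without 1 library and was lost with voom and quality weights (adjusted p = 0.418). Cxcl12 message was present at 62.1 and 137 CPM in WT replicates 1 and 2, where Cxcr4 stood at 0.0783 and 0 CPM.

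Cxcr5 (chr9:44511787-44561877, minus strand), the receptor of Cxcl13 on follicular lymphocytes, stood at 0.0783, 0 and 0.0839 CPM across WT, against 1.28, 9.71, 9.41 and 8.02 CPM in Fyn-KO. Fyn-KO replicate 1 was low, and the groups did not overlap. The pooled ratio was 147 (95% exact interval 40.3 to 1218) and the log2 fold change 6.68 ± 1.61 (edgeR adjusted p = 0.0184). Its 3′ end overlaps an exon of Bcl9l on the other strand, at 0.0783 to 166 CPM across WT, against 160 to 179 CPM in Fyn-KO. Bcl9l held 1, 2712 and 6 counts across WT and 1439 to 1681 in Fyn-KO, against 1, 0 and 1 and 12 to 101 for Cxcr5. The strand of counting is not stated, and shared reads of Cxcr5 and Bcl9l were not tested. B cell markers as a list summed to 0, 0.122 and 0.0839 CPM in WT libraries and 2.98, 4.14, 2.85 and 2.90 CPM in those of Fyn-KO, with each Fyn-KO library above each WT library, and their part in the Cxcr5 values was not tested. Cxcl13, its ligand, had no count in Fyn-KO.

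Cxcr6 (chr9:123806475-123811760, plus strand), a receptor of T and NK cells, was without a count in the WT libraries and reached 2.24, 5.87, 3.50 and 1 CPM in Fyn-KO. Its mean was at least 12.5-fold higher than the WT floor (edgeR adjusted p = 0.0128). It lies in an intron of Fyco1, on the other strand. Fyco1 held 4, 1302 and 1191 counts across WT and 596, 836, 429 and 785 in Fyn-KO, and shared reads were not tested.

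Ccr2, which brings monocytes to inflamed tissue, was not called. It stood at 0.0783, 0 and 0.252 CPM across WT, against 12.4, 4.71, 4.49 and 0 CPM in Fyn-KO, so that Fyn-KO replicate 4 overlapped WT (log2 fold change 5.26 ± 2.16, edgeR adjusted p = 0.126). Without that library the adjusted p was 0.0413. Cxcr2, the receptor of neutrophil-attracting ligands, was the 1 tested receptor detected in every library. It stood at 1.72, 1.16 and 1.18 CPM across WT, against 0.852, 1.92, 0.547 and 3.01 CPM in Fyn-KO (log2 fold change 0.12 ± 0.89, edgeR adjusted p = 0.954).

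The other receptors were too sparse to test. Xcr1, a receptor of cross-presenting dendritic cells, stood at 0.168 to 0.244 CPM across WT, against 0.852, 0.866, 2.19 and 2.90 CPM in Fyn-KO, with no overlap and a ratio of means of 7.89. Ccr1 held 1 count in WT and up to 2.98 CPM in Fyn-KO, a pooled ratio of 69.3 (95% lower bound 12). Ccr9, the receptor of Ccl25, was found in Fyn-KO alone at 2.13, 0.0962, 0.109 and 7.24 CPM. Ccr10, the receptor of Ccl27 proteins, was found in Fyn-KO replicates 3 and 4. Ccr4 had a count in WT replicates 1 and 2 and 1.31 CPM in Fyn-KO replicate 3, and Ccr6 and Ccr7 had at most 0.109 CPM in 1 Fyn-KO library each. Cxcr1, Cxcr3, Ccr3 and Ccr8 had no count in any library.

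**Figure D3:**
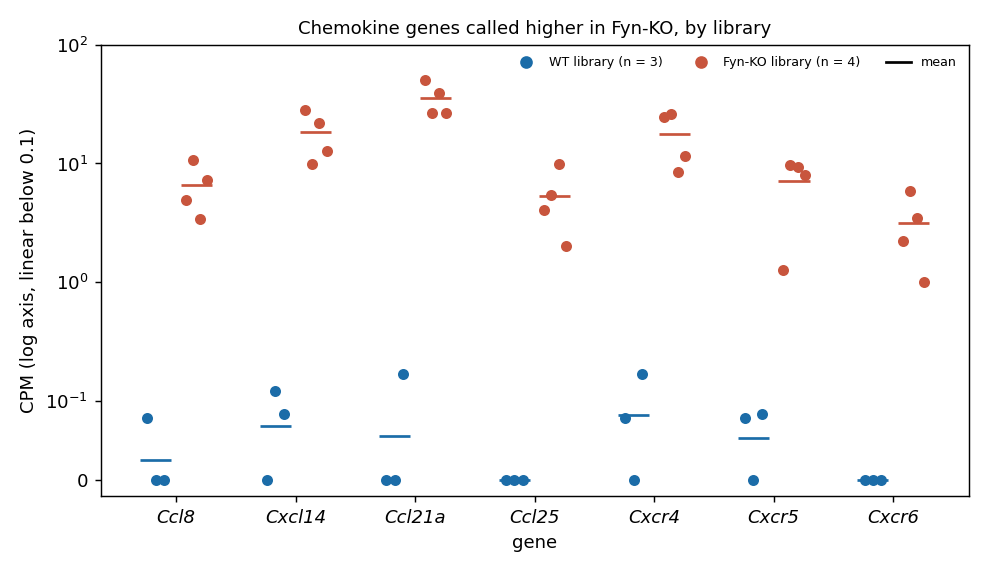
CPM of 7 chemokine genes called higher in Fyn-KO, on a log axis that is linear below 0.1; points are libraries and bars are group means. The WT points lie at or below 0.168 CPM and the Fyn-KO points at 1 CPM or more.

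The 2 atypical receptors tested were not called. Ackr3, the scavenger of Cxcl12, stood at 0.0783, 0 and 0.252 CPM across WT, against 10.3, 1.15, 4.71 and 7.46 CPM in Fyn-KO, with no overlap (log2 fold change 5.39 ± 1.65, edgeR adjusted p = 0.0503). It was past the threshold in 7 of 14 alternative settings. Ackr1, which takes up inflammatory chemokines on venules and red cells, stood at 90.2, 30.1 and 0 CPM across WT, against 2.56, 0, 5.14 and 0 CPM in Fyn-KO (log2 fold change -4.26 ± 2.59, edgeR adjusted p = 0.327). WT replicates 1 and 2 were high and WT replicate 3 had no count. The endothelial markers ran the other way in WT, with a sum of 1.25, 20.2 and 1385 CPM. Cadm3, a neighbouring gene that overlaps Ackr1 on the same strand, held 2847, 951 and 0 counts in WT and 0, 10, 88 and 22 in Fyn-KO; the WT order is that of Ackr1, and shared reads were not tested. Ackr4, which scavenges Ccl19, Ccl21 and Ccl25, and Ackr2, which scavenges inflammatory CC ligands, had counts in Fyn-KO replicate 4 alone, at 3.45 and 1.56 CPM.

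**Figure D4:**
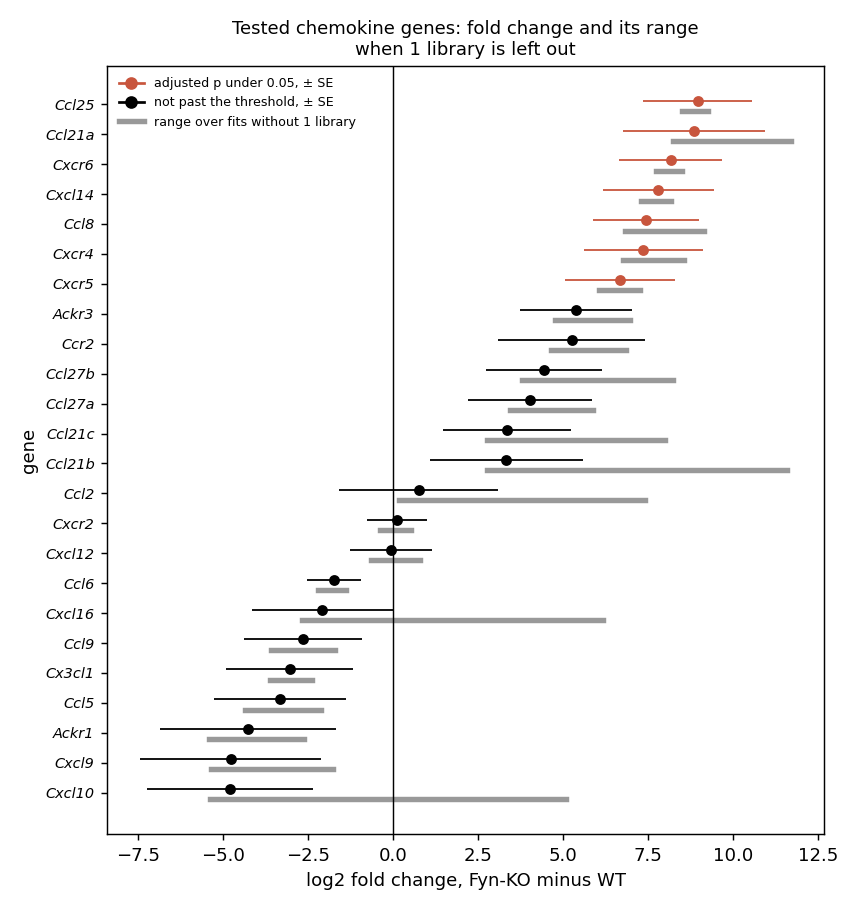
Log2 fold change (Fyn-KO minus WT) of 24 tested chemokine genes with its approximate SE; grey bars give the range over the fits that left out 1 library. The grey bars of Cxcl10, Cxcl16, Cxcl12 and Cxcr2 cross 0, those of the 7 called genes drawn lie above 6, and the values of Ccl25 and Cxcr6, which had no WT count, are fitted and no measured size.

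Of the genes of the chemokine system outside the symbol pattern, 8 were tested, with 4 higher and 1 lower, beside 19.0% and 3.51% of all tested genes. Cx3cr1, the fractalkine receptor and a defining gene of microglia, stood at 0, 0.0611 and 0 CPM across WT, against 63.4, 75.2, 68.2 and 46.9 CPM in Fyn-KO (log2 fold change 10.98 ± 1.67, edgeR adjusted p = 0.0121). Its ligand Cx3cl1 was highest in WT replicates 2 and 3, where Cx3cr1 held 0.0611 and 0 CPM. Rarres2, or chemerin, stood at 2.11, 0 and 2.01 CPM across WT, against 131 to 179 CPM in Fyn-KO, and its receptors Cmklr1 and Ccrl2 were higher as well (edgeR adjusted p = 0.0228, 0.0167 and 0.0225). Cx3cr1, Cmklr1 and Ccrl2 had under 10 counts in every WT library, a class in which 77.3% of tested genes were called higher. Mif, a cytokine that binds Cxcr2, Cxcr4 and Cd74, stood at 591, 880 and 566 CPM across WT, against 242, 215, 218 and 265 CPM in Fyn-KO, with no overlap (log2 fold change -1.57 ± 0.28, edgeR adjusted p = 0.0121). Pf4, the platelet chemokine Cxcl4, stood at 347, 0 and 0.42 CPM across WT, against 7.99 to 27.1 CPM in Fyn-KO (edgeR adjusted p = 0.511), and was highest in the library with the most Cxcl10.

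Of 42 signalling genes tested that act downstream of chemokine receptors, 6 were higher and 2 lower, beside 19.0% and 3.51% of all tested genes, with a median log2 fold change of -0.07. Plcb2, Plcb3 and Jak3 were higher (edgeR adjusted p = 0.0121, 0.0123 and 0.0122), each with at most 0.0839 CPM in a WT library. These genes had under 10 counts in every WT library, a class in which 77.3% of tested genes were called higher. Gnb2, a G protein beta subunit, stood at 423, 771 and 405 CPM across WT, against 151, 150, 75.6 and 136 CPM in Fyn-KO (log2 fold change -2.08 ± 0.38, edgeR adjusted p = 0.0121). Prex1, an activator of Rac downstream of these receptors, was the other lower gene (log2 fold change -3.48 ± 0.95, edgeR adjusted p = 0.0309).

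Markers of leukocytes, which carry chemokine receptors, are given here beside the receptor genes, and their calls are to be read against the 19.0% of all tested genes called higher. Of 16 tested markers of microglia and macrophages, 3 were higher (Tmem119, Tyrobp and Trem2) and none lower, and the sum was 220 to 678 CPM across WT, against 388 to 453 CPM in Fyn-KO. In WT, Fcgr1 and P2ry12 were at 0, and in Fyn-KO P2ry12 had counts in replicate 1 alone. T and NK cell markers summed to 0 to 0.336 CPM across WT, against 2.9 to 11.9 CPM in Fyn-KO, with 1 tested and not called; Cd3e, Cd8a and Ncr1 were at 0 in every library. B cell markers summed to 0 to 0.122 CPM across WT, against 2.85 to 4.14 CPM in Fyn-KO, with 0 tested. Dendritic cell markers summed to 0 to 20.7 CPM and 5.9 to 15.5 CPM, with 2 tested and not called, and Flt3 and Cd209a were at 0 throughout. Neutrophil markers summed to 0.313 to 30.2 CPM and 5.22 to 13.9 CPM, with 1 of 2 tested higher, Camp. Tmem119, Tyrobp, Trem2 and Camp each had under 10 counts in every WT library, a class in which 77.3% of tested genes were called higher. The part of these cells in the receptor and ligand values was not tested.

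Markers of stroma and vessels stood beside the homeostatic ligands. Calls of these markers are to be read against the 19.0% of all tested genes called higher and 3.51% lower. Endothelial markers summed to 1.25 to 1385 CPM across WT, against 535 to 596 CPM in Fyn-KO, with 1 of 10 tested higher, Emcn. Markers of fibroblasts and mural cells summed to 1240 to 2365 CPM across WT, against 2258 to 3176 CPM in Fyn-KO, with 3 of 10 higher and 2 lower. The lower ones were Cspg4 (348 to 1141.4 CPM across WT) and Pdgfra (429 to 1042.8 CPM), which is also among the glial tumour markers. They made up most of the sum in WT replicates 1 and 2. Dcn and Lum, made by fibroblasts, were among the higher ones, at most 2.52 CPM and 0 CPM across WT, against 458 to 572 CPM and 55.7 to 102 CPM in Fyn-KO. Platelet markers summed to 243 to 756 CPM across WT, against 52.8 to 91.8 CPM in Fyn-KO, with 1 of 3 tested higher (Itga2b) and 1 lower (Gp1bb). Nearly all of the WT sum was Gp1bb (409, 243 and 508 CPM) and, in WT replicate 1, Pf4 (347 CPM). Ppbp, Gp9, Itga2b and Treml1 held at most 0.168 CPM in a WT library, and each was highest in a Fyn-KO library. Emcn, Lum and Itga2b had under 10 counts in every WT library, a class in which 77.3% of tested genes were called higher. The part of these cells in the levels of Ccl21, Ccl25, Ccl27 and Cxcl14 was not tested.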

How the data were processed

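The submitters deposited 1 table of whole-number counts per gene and library, read here as counts of 3′ tags without molecular identifiers. Per the labels, RNA of sorted cells was made into libraries with the Lexogen QuantSeq 3′ kit. Per the submitters' processing notes, Bowtie2, bedtools and DESeq2 1.32.0 were used with mm10 (GRCm38). None of these sources gives the strand of counting, the annotation or what was modified in a table the submitters call modified. The column of WT replicate 3 was joined to the WT group but not to 1 sample, since its name is both in the description of 1 WT sample and the title of another. All 7 columns were used.

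In edgeR 4.0.16 (R 4.3.3), filterByExpr kept genes with 10 counts in enough libraries and 15 in total. Libraries were scaled by TMM, and genes were tested with the quasi-likelihood F test, which was first tested on simulated data. Only the spread between these libraries, 3 and 4, enters the p-values. The SE was taken as the size of the log2 fold change divided by the root of its F value. Folds against a group at 0 use a floor of 3 counts per library (0.252 CPM in WT, 0.334 CPM in Fyn-KO, the largest of any library). With 1 to 3 counts the ratio of pooled counts has a 95% exact interval. Floors and intervals cover counting error only.

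Members with a mean of 10 CPM in a group are given by library with their test, sparser ones by range. Up to 4 genes by p and 4 by level of each list could be named; cytokines without a count were chosen after their values were seen. Members, lists and tests were chosen with earlier results of these data known. Alternatives were RLE factors, library totals alone, no filter, a minimum of 50 counts, detection in both groups, DESeq2 1.42.0, voom with quality weights in limma 3.58.1, a replicate block, removal of Rn45s and Malat1, and leaving out each library. Coordinates are from GENCODE M21, which holds 59 of the 60 symbols. Some genes that the counts include are not reported here.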

Additional observations from a re-analysis of the deposited data

Results flagged for a closer look

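Of 39 values of the Fyn-KO group examined for a library far from the others, 1 stood out. The summed level of the B cell markers was 4.14 CPM in Fyn-KO replicate 2 and 2.85 to 2.98 CPM in the other Fyn-KO libraries. A threshold at the 95% level flags a few values of this many by chance alone.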

How the results depend on the processing

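Chemokine genes called higher numbered 8 in the reported fit and 8 or 9 with RLE factors, library totals alone, no filter, or Rn45s and Malat1 removed. They numbered 12 with DESeq2, 5 at a minimum of 50 counts and 6 to 12 when 1 library was left out. At a minimum of 50 counts Ccl25 and Cxcr6 did not pass the filter and were not tested. Called lower were 0 to 2 when 1 library was left out (2 without WT replicate 2) and 0 under the other settings. Voom with quality weights called 0 higher and 0 lower, and the cause was not tested. The filter that asked for detection in both groups kept 6 members, with 0 called. It removes each of the 8 called members, which had under 10 counts in every WT library, so it could not test them. Over all genes, calls higher and lower were 24 and 320 with voom, 52 and 146 with detection in both groups, 3564 and 918 with DESeq2, and 2190 to 4585 and 247 to 839 when 1 library was left out, with the most without WT replicate 2.

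With the replicate block, 0 members were called in either direction, and 188 and 135 genes of all. The numbers do not pair the libraries, since deviations of same-numbered libraries correlated at -0.0142, -0.000155 and -0.0205.

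The log2 fold change of Cxcl16 was 4.01 with voom, 5.16 with the replicate block and -2.66 to 6.17 when 1 library was left out. That of Cxcl10 was 2.12, 2.99 and -5.38 to 5.08, and that of Cxcl12 was 0.81, 1.04 and -0.64 to 0.81, with 0.11 under detection in both groups. The cause of these turns under voom and the block was not tested. Of 230 values of 15 members under an alternative, 205 kept direction and side of the threshold, 7 lost the call, 7 gained one and 11 turned. For the 21 members with counts that were too sparse to test, depth limits what these libraries can show.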
